A study of Mus musculus with 24 samples.

Results

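The 31 genes described here cover cholesterol synthesis, its sterol-sensing control, and the transport, storage and removal of cholesterol. They were 31 of the 55177 genes to which the deposited transcripts could be assigned. The genes were listed by name and were chosen by their known functions, with results of the comparisons between constructs in these same libraries already known. Their counts and values below therefore describe these libraries and are no independent support for a change in the pathway.

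The libraries came from primary mouse cortical neurons, prepared from cortex at embryonic day 16.5 and kept in culture for 7 or 18 days in vitro (DIV7 and DIV18). The study, on BAF-type chromatin remodelling complexes and synaptic activity, compared neurons lacking the complex subunit Smarcc2 with neurons given it back. All cultures were silenced overnight with 1 µM tetrodotoxin, a blocker of voltage-gated sodium channels, and 100 µM D-AP5, a blocker of NMDA receptors. KCl at 50 mM was then given to the depolarized cultures for 30 min but not to the resting ones.

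At DIV18 there were 8 groups. Cultures with a non-targeting guide RNA (NT) gave 2 resting and 2 depolarized libraries. Smarcc2 knockout cultures (KO) with vector gave 3 resting and 3 depolarized libraries. KO cultures given wild-type Smarcc2 (WT) gave 2 resting and 3 depolarized libraries, those given the S586E form 3 resting libraries, and those given the S586A form 2 depolarized libraries. S586E and S586A put glutamate or alanine in place of the serine at this position. The labels of NT cultures name no vector, and the way the knockout was made and the promoter of the added constructs were not given in the sources used here. Smarcc2 RNA was not lost in full in KO cultures and lay above the NT level with each added construct. At DIV7, wild-type cultures treated with 0.1% DMSO gave 2 resting and 2 depolarized libraries. RNA at DIV7 was poly(A)-selected and RNA at DIV18 was depleted of ribosomal RNA, so age and RNA selection cannot be told apart between the DIV7 and DIV18 values.

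The DIV7 libraries held between 24536056 and 30135576 estimated counts, the DIV18 libraries between 14510199 and 24024959. Smarcc2 itself was at 237 and 265 CPM (read counts scaled to a common library size by TMM) in resting NT libraries and at 47.1 to 64.1 CPM in the resting KO libraries with vector. It was at 737 to 1340 CPM in the libraries with an added construct. The 10 early response genes listed as a check of depolarization summed to 507 to 1053 CPM in depolarized NT libraries, against 193 and 197 CPM at rest. Neuron markers, as the labels would have it, were abundant (15 genes, 7110 to 9546 CPM in sum at DIV18), and markers of astrocytes were also present (10 genes, 876 to 2063 CPM). Each embryo's cortex was a biological replicate by the labels' protocol. In RNA from whole cultures, fewer cells of a type and less RNA per cell cannot be told apart.

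Cholesterol is built from acetyl-CoA through mevalonate, isoprenoid units, squalene and lanosterol, and the brain makes nearly all of its own because lipoproteins of the blood do not cross into it. When sterols in the endoplasmic reticulum run low, SCAP carries SREBP transcription factors away from their INSIG anchors to the Golgi, where they are cut and released to the nucleus to switch on the synthesis genes. In the brain, astrocytes supply cholesterol to neurons on lipoproteins that carry apolipoprotein E, and neurons remove it by converting it to a hydroxylated sterol that can leave the brain.

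Levels of different genes were compared in TPM, which scales for transcript length. Over the 20 DIV18 libraries, Apoe had the highest mean level, at 216 TPM (range 60.9 to 585 TPM). Cyp46a1 (89.6 TPM, range 67.5 to 117 TPM) and Hmgcs1 (85.9 TPM, range 59.2 to 131 TPM) followed, with ranges that overlapped each other. Npc1 was lowest, at 5.64 TPM (range 3.39 to 7.50 TPM). Across the DIV18 libraries the level varied most for Apoe, Soat1 and Srebf1, with coefficients of variation of 54.9%, 35.2% and 28.9%, and least for Pmvk, at 12.7%. In the 4 DIV7 libraries Hmgcs1 stood first, at 1252 TPM (range 1180 to 1310 TPM), followed by Fdps at 584 TPM and Apoe at 469 TPM. Cyp46a1, second at DIV18, was in place 19 of 31 at DIV7 (82.6 TPM).

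Promoters of 6 genes are shown next, as examples from the steps of synthesis and its control, picked with their values known. They are shown because SREBPs act on synthesis genes through short sterol elements beside CCAAT boxes, which bind NF-Y. RefSeq promoter windows (build GRCm38.p6, 250 bases before to 50 after each start) matched 25 of the 31 genes, in 35 windows. No window was matched for Fdft1, Abcg1, Npc1, Sqle, Stard4 and Fdps. Each sequence runs 5′ to 3′ on the gene's own strand and stops at the first annotated start. Capitals mark the letters TCACNNCA, a loose form of the sterol element chosen after the windows were seen, and CCAAT, each on either strand.
Hmgcs1 (cytosolic HMG-CoA synthase, chr13:119690101-119690350, plus strand): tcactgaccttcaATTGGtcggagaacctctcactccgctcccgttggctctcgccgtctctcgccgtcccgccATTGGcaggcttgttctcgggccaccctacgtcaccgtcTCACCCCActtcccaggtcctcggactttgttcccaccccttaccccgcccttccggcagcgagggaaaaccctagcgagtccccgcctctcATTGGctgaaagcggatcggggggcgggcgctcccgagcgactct
Mvd (mevalonate diphosphate decarboxylase, chr8:122443423-122443672, minus strand): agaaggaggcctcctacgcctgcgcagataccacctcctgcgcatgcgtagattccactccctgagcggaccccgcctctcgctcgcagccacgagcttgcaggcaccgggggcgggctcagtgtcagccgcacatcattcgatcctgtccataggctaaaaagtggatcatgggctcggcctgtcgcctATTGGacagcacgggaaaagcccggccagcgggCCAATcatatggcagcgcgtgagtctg
Cyp51 (lanosterol demethylase, chr5:4104747-4104947, minus strand): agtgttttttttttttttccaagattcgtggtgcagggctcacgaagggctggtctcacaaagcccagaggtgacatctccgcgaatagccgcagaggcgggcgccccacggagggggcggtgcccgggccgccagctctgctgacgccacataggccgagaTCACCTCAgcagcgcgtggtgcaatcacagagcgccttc
Hsd17b7 (a sterol ketone reductase, chr1:169969242-169969455, minus strand): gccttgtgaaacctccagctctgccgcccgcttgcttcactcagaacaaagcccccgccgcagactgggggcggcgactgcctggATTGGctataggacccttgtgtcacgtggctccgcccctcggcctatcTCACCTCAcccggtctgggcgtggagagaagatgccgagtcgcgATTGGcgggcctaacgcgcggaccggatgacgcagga
Insig1 (an SREBP anchor, chr5:28071162-28071362, plus strand): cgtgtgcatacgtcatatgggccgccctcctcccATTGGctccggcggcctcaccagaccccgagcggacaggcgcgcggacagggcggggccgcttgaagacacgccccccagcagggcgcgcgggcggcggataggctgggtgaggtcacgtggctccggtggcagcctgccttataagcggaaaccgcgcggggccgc
Srebf2 (the SREBP2 gene, chr15:82147019-82147180, plus strand): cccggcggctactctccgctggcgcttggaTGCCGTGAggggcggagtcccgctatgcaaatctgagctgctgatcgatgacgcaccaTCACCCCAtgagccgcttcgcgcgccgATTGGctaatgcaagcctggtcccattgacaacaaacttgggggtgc
In the printed stretches the Hmgcs1 promoter held 3 CCAAT boxes and 1 loose sterol element, and Srebf2 held 1 CCAAT box and 2 loose elements. Cyp51 held a loose element and no CCAAT box, while Mvd and Insig1 held CCAAT boxes (2 and 1) and no such element. The whole window of Cyp51, which runs past the printed end, held 1 CCAAT box. Over whole windows, CCAAT was present in 22 of the 35 member windows (62.9%) and in 37.4% of all 32851 windows of the same length. TCACNNCA was present in 12 member windows (34.3%) and in 13.8% of all windows. The stricter forms TCACNCCAC (1.24% of all windows) and TCACNCNAC (2.70%) were present in the window of Hmgcs1, and the second also in that of Nsdhl. TCACNCCAC is contained in TCACNCNAC, and windows of one gene can share bases. These are matches of letters and not tested binding sites.

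The first comparison asked how the genes differed between KO cultures with vector and NT cultures in resting neurons at DIV18. The NT labels name no vector, so these groups may differ in vector as well as in Smarcc2. Expression of 12 of the 31 genes was lower in KO cultures with vector than in NT cultures, and of none was higher. The 12 were Hmgcs1, Mvd, Hsd17b7 and Dhcr7 of the synthesis pathway, the SREBP genes Srebf1 and Srebf2, and Stard4, Npc1, Npc2, Soat1, Cyp46a1 and Apoe of transport, storage and removal. Of all 20940 genes tested, 5.9% were called in either direction and 3.77% were called lower at an adjusted p under 0.05. The fold change lay below 0 for 27 of the 31 genes, with a median log2 value of -0.33 against 0.02 over all genes. Comparisons of different constructs with NT share the NT libraries, and those with vector share the vector libraries. Some counts below use an unadjusted p under 0.05 or another test, DESeq2. The share of all genes with an unadjusted p under 0.05 was not counted, so those counts cannot be set against a background. Percentages of all genes are those of edgeR at the adjusted threshold unless DESeq2 is named. DESeq2 can call a larger share of all genes, for example 2.76% against 0.00955% by edgeR for S586A against vector after KCl. The edgeR shares are therefore no background for counts by DESeq2.

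**Figure D1:**
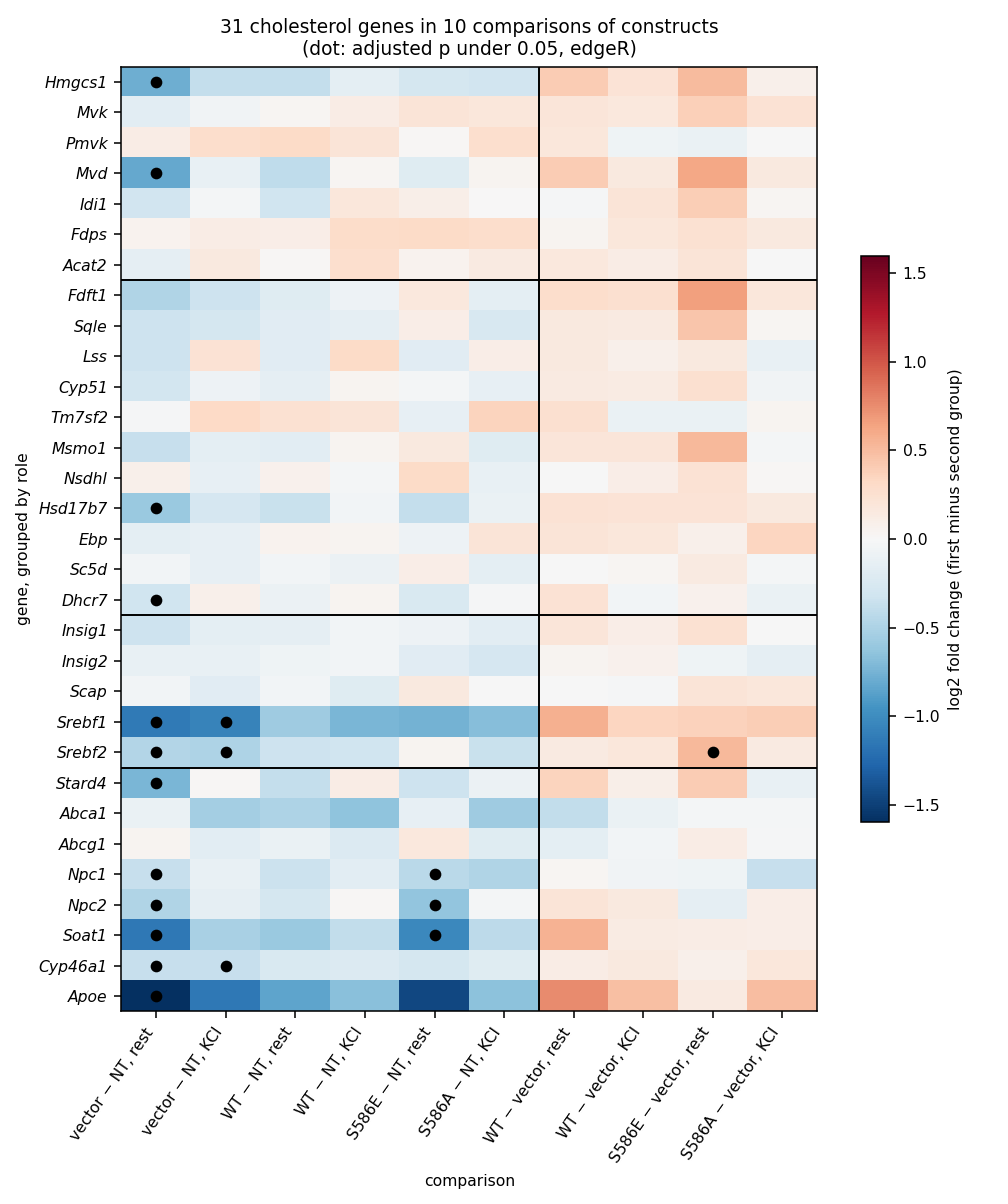
Colour gives the log2 fold change (first minus second group) of each of the 31 genes, in rows grouped by role, for 10 comparisons of constructs in columns, and a dot marks an adjusted p under 0.05 (edgeR). The first column, KO with vector minus NT at rest, holds 12 dots, and the columns against vector hold 1, for Srebf2.

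In the mevalonate arm, which makes isoprenoid units from acetyl-CoA, 2 of 7 genes fell. Hmgcs1, which makes HMG-CoA, had 408 and 437 CPM in the NT libraries and 263, 226 and 246 CPM in the 3 KO libraries with vector. It fell by 42.0% (log2 fold change -0.79 ± 0.144 SE, adjusted p = 0.00420 by edgeR), and no KO library reached the lower NT library. Mvd, which makes isopentenyl diphosphate, was at 39.5 and 38.6 CPM in NT and at 18.3, 21.2 and 27.4 CPM in KO libraries with vector. It fell by 43.1% (log2 fold change -0.81 ± 0.152 SE, adjusted p = 0.00478 by edgeR), again with no overlap. The other 5 genes of the arm (the thiolase Acat2, the kinases Mvk and Pmvk, the isomerase Idi1 and the farnesyl diphosphate synthase Fdps) were not called, with log2 fold changes from -0.30 for Idi1 to 0.12 for Pmvk.

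From squalene to cholesterol, 2 of 11 genes fell. Hsd17b7, a ketone reductase of the demethylation steps, was at 50.1 and 59.4 CPM in NT and 37.2, 38.8 and 32.4 CPM in KO libraries with vector (log2 fold change -0.60 ± 0.125 SE, adjusted p = 0.00927 by edgeR). Dhcr7, which makes cholesterol in the last step of one branch, was at 98.6 and 113 CPM in NT and 78.6, 90.2 and 85.4 CPM in KO libraries with vector (log2 fold change -0.32 ± 0.0823 SE, adjusted p = 0.0270 by edgeR). Both sets of KO libraries lay wholly below the NT libraries, and the change in Dhcr7 was the smallest of the 12. The other 9 genes were not called. Cyp51 (log2 fold change -0.29, adjusted p = 0.0581, edgeR) and the squalene synthase gene Fdft1 (log2 fold change -0.48, adjusted p = 0.0859, edgeR) came closest, and Nsdhl had the highest value (0.08).

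Among the 5 genes of sterol sensing, both SREBP genes fell. Srebf1, whose products favour fatty acid synthesis genes, was at 45.5 and 57.2 CPM in NT and at 27.6, 27.5 and 14.8 CPM in KO libraries with vector. It fell by 54.5% (log2 fold change -1.14 ± 0.244 SE, adjusted p = 0.0105 by edgeR), with the third KO library far below the other two. Srebf2, whose product favours cholesterol synthesis genes, was at 225 and 231 CPM in NT and at 155, 159 and 179 CPM in KO libraries with vector. It fell by 27.9% (log2 fold change -0.47 ± 0.0851 SE, adjusted p = 0.00386 by edgeR), and the 2 groups did not overlap. Insig1, the SREBP anchor that is itself an SREBP target, was at 109 and 128 CPM in NT and 88.4, 95.7 and 98.1 CPM in KO libraries with vector. The Insig1 libraries did not overlap, but the gene was not called (log2 fold change -0.33 ± 0.100 SE, adjusted p = 0.0584 by edgeR). The second anchor gene Insig2 (-0.12) and Scap (-0.05), the escort of SREBPs, were not called and overlapped between the groups.

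Of the 8 genes of transport, storage and removal, 6 fell. Soat1, which esterifies cholesterol for storage, was at 50.2 and 64.9 CPM in NT and 28.0, 28.1 and 21.8 CPM in KO libraries with vector, and it fell by 54.9% (log2 fold change -1.15 ± 0.176 SE, adjusted p = 0.00122 by edgeR). Apoe, the main lipoprotein component of the brain, was at 396 and 619.9 CPM in NT and 208, 224 and 68.7 CPM in KO libraries with vector. It fell by 67.1% (log2 fold change -1.61 ± 0.405 SE, adjusted p = 0.0252 by edgeR), with the third KO library far below the other two. Stard4, a carrier of cholesterol through the cytosol, was at 47.5 and 64.3 CPM in NT and 27.0, 31.8 and 42.0 CPM in KO libraries with vector (log2 fold change -0.74 ± 0.170 SE, adjusted p = 0.0156 by edgeR). The KO libraries of these genes all lay below the NT libraries.

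Npc1 and Npc2 together pass cholesterol out of lysosomes. Npc1 was at 36.8 and 41.1 CPM in NT and 31.6, 31.1 and 27.8 CPM in KO libraries with vector (log2 fold change -0.37 ± 0.102 SE, adjusted p = 0.0391 by edgeR). Npc2 was at 29.5 and 44.0 CPM in NT and 24.3, 28.5 and 25.9 CPM in KO libraries with vector (log2 fold change -0.49 ± 0.133 SE, adjusted p = 0.0375 by edgeR). The lower NT library of Npc2 lay just above the highest KO library, and over protein-coding transcripts alone Npc2 was not called. Cyp46a1, the neuronal enzyme that hydroxylates cholesterol for removal, was at 247 and 256 CPM in NT and 198, 211 and 176 CPM in KO libraries with vector (log2 fold change -0.37 ± 0.0862 SE, adjusted p = 0.0173 by edgeR). The sterol exporter genes Abca1 (-0.11) and Abcg1 (0.05) were not called, and their libraries overlapped.

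These calls rested on the NT libraries. Without NT resting replicate 2 none of the 31 genes was called (100 of all genes were, against 1236, from a fit in which the lone NT library is assumed to vary like the other groups). A fit of only these 2 groups called 2 of the 31 (Hmgcs1 and Soat1), and single vector libraries or effective lengths also decided some calls: Apoe, Cyp46a1, Npc1 and Npc2 were lost without vector replicate 3, Stard4, Dhcr7, Npc1 and Npc2 without replicate 1, Npc1 without replicate 2, Cyp46a1 and Npc1 without NT replicate 1, and Srebf1, Hsd17b7, Dhcr7 and Npc1 with length offsets.

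**Figure D2:**
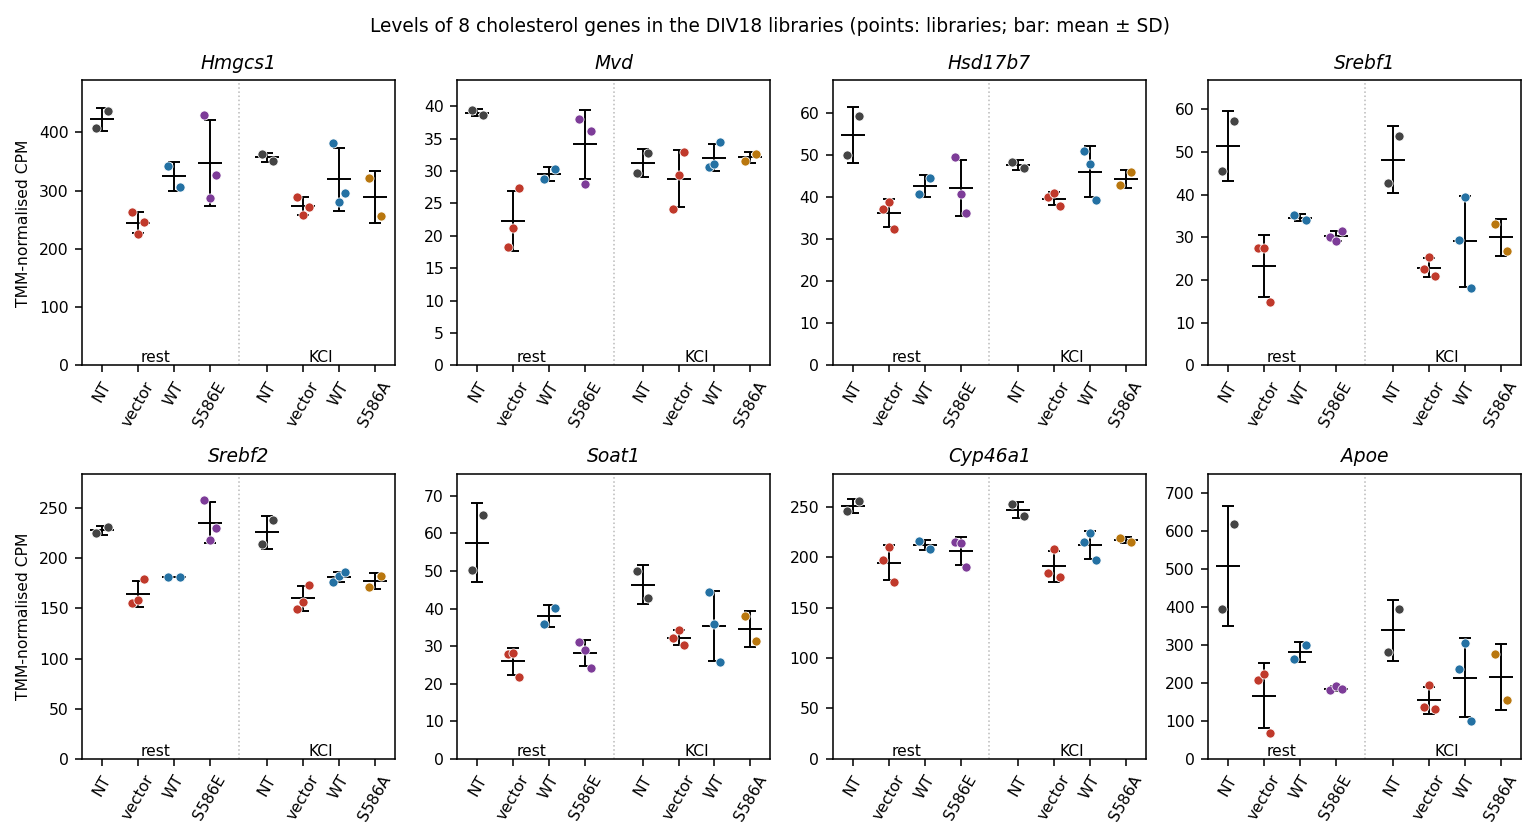
Each panel plots the TMM-normalised CPM of 1 gene in the 20 DIV18 libraries by construct, resting cultures left and KCl cultures right of the dotted line, with points for libraries and a bar for the mean ± SD. In all 8 panels the resting vector points lie below the resting NT points, and for Srebf2 the S586E points (218 to 258 CPM) lie above the vector points (155 to 179 CPM).

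Other pathway lists were read from the same fit. Of 16 fatty acid synthesis genes controlled by SREBP1, 8 fell in resting KO cultures with vector and none rose, with a median log2 fold change of -0.42. The largest falls by the naming rule were in Scd1 (-1.47, SE 0.237, adjusted p = 0.00178, edgeR), Fads1 (-0.96) and Elovl5 (-0.93), which desaturate or elongate fatty acids. Of 36 other genes of sterol transport, receptors and LXR control, 34 were tested and 8 fell, led by the lipoprotein receptor gene Scarb1 (-0.79, SE 0.166, adjusted p = 0.00932, edgeR), Pltp (-0.69) and Lpcat3 (-0.65). Of 14 other genes of sterol synthesis and SREBP control, none fell and 1 rose, Pgrmc1 (0.37, SE 0.0972, adjusted p = 0.0317, edgeR), and the list's median was 0.01.

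Markers of cell types other than neurons moved in the same comparison. Of 10 astrocyte markers 3 fell (Slc1a2, Aldoc and Fgfr3), and the list summed to 1713 and 1875 CPM in resting NT libraries against 965 to 1433 CPM in KO libraries with vector. The third KO library, lowest for Apoe and Srebf1, was also lowest in this sum. Of 13 oligodendrocyte lineage markers, 11 were tested and 6 fell, with sums of 214 and 227 CPM in NT against 144 to 163 CPM in KO libraries with vector. The lineage gene Sox10 was at 2.76 and 8.40 CPM in NT and at 0 in all 3 KO libraries, and Pdgfra went from 19.7 and 30.3 CPM to at most 1.01 CPM, while Mbp was at 89.8 and 121 CPM in NT and 124 to 129 CPM in KO. Of 8 markers of dividing progenitors 3 fell (sums of 32.8 and 50.4 CPM against 9.95 to 16.8 CPM). Microglia markers summed to at most 8.20 CPM at rest in NT and 4.17 CPM in KO, where Tmem119, C1qa and C1qb were at 0, and 1 of 3 tested fell (Csf1r). Of 15 neuron markers 1 rose (Slc17a6) and none fell, with sums of 8239 and 8318 CPM against 7580 to 8585 CPM. Vessel and fibroblast markers summed to 19.6 and 27.9 CPM against 37.4 to 52.0 CPM, with 1 of 7 tested called higher (Rgs5). The part of these shifts in the lower cholesterol genes was not tested.

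**Figure D3:**
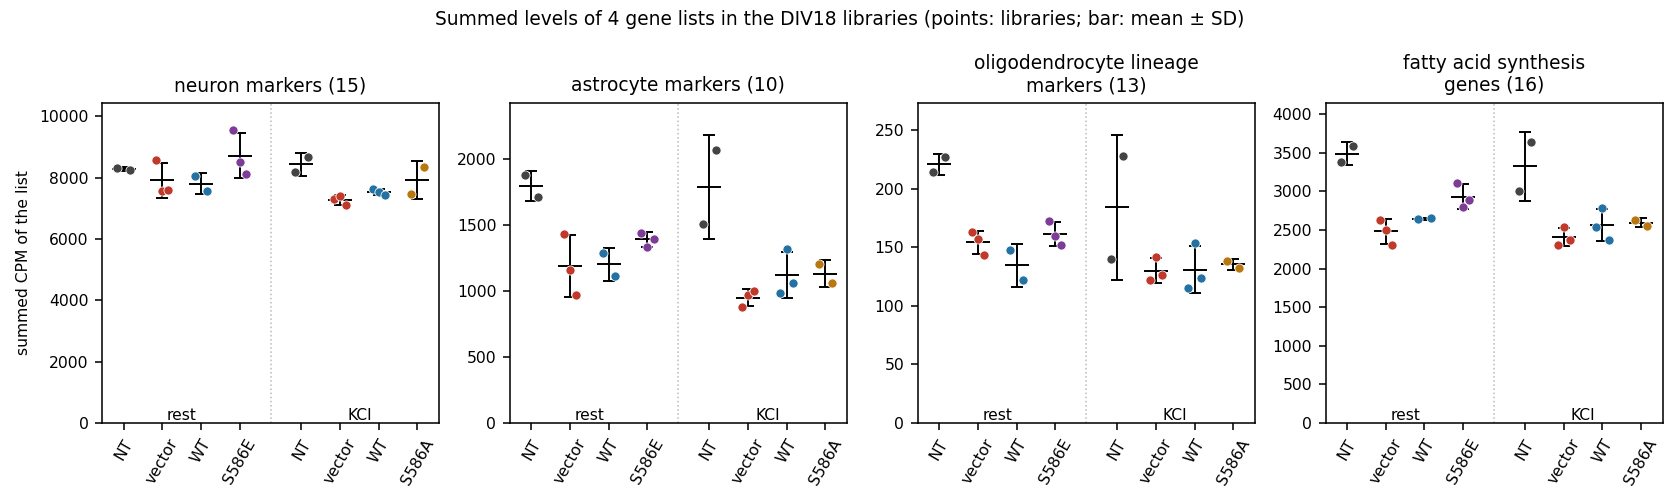
Each panel plots the summed CPM of 1 gene list in the 20 DIV18 libraries by construct, at rest and after KCl, with points for libraries and a bar for the mean ± SD. The resting NT points lie above all resting KO points for astrocyte markers, oligodendrocyte lineage markers and fatty acid synthesis genes, and amid them for neuron markers.

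In depolarized cultures 3 of the 31 genes were lower in KO with vector than in NT, against 2.67% of all genes in either direction and 1.95% called lower. The 3 were both SREBP genes and Cyp46a1, and the median log2 fold change of the 31 was -0.14. Srebf1 was at 42.6 and 53.7 CPM in the 2 NT libraries and 22.5, 25.3 and 20.9 CPM in the 3 KO libraries (log2 fold change -1.07 ± 0.246 SE, adjusted p = 0.0275 by edgeR). Srebf2 was at 214 and 238 CPM in NT and 149.9, 157 and 174 CPM in KO libraries (log2 fold change -0.50 ± 0.0852 SE, adjusted p = 0.00566 by edgeR). Cyp46a1 was at 253 and 242 CPM in NT and 185, 209 and 180.2 CPM in KO libraries (log2 fold change -0.37 ± 0.0863 SE, adjusted p = 0.0281 by edgeR). All KO libraries of these genes lay below the NT libraries, as at rest.

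The remaining genes of the resting set did not pass in depolarized cultures. Apoe was at 283 and 396 CPM in NT and 136, 195 and 131 CPM in KO libraries (log2 fold change -1.14 ± 0.406 SE, adjusted p = 0.149 by edgeR), without overlap. Soat1 was at 50.0 and 42.7 CPM in NT and 32.1, 34.3 and 30.2 CPM in KO libraries (log2 fold change -0.52 ± 0.178 SE, adjusted p = 0.127 by edgeR), also without overlap. Hmgcs1 was at 363 and 352 CPM in NT and 289.5, 259 and 272 CPM in KO libraries (log2 fold change -0.38 ± 0.145 SE, adjusted p = 0.174 by edgeR). Mvd (-0.12) and Stard4 (0.02) lay near 0, with overlapping libraries. In a direct test of whether the KCl response differed between KO with vector and NT, 0 of the 31 genes and 0% of all genes were called by edgeR, 6 of the 31 had an unadjusted p under 0.05, and DESeq2 called 0. The calls depended on single libraries: without NT depolarized replicate 2 none of the 31 was called, and without KO vector replicate 1 or 3, 1 was (Srebf2).

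The same lists were read in the depolarized cultures. Of the 16 fatty acid synthesis genes 5 fell, led by Scd1 (-1.34, SE 0.238, adjusted p = 0.00698, edgeR), Me1 (-0.68) and Fasn (-0.58), and of 34 other transport, receptor and LXR genes 3 fell (Lpl, Lrp1 and Abca3). None of the 14 other sterol synthesis and control genes was called. Astrocyte markers summed to 1505 and 2063 CPM in NT against 876 to 996 CPM in KO libraries (3 of 10 fell, among them Slc1a2), and oligodendrocyte lineage markers to 139.9 and 228 CPM against 122 to 142 CPM (3 of 11 fell). Of the 15 neuron markers 3 fell (Nefl, Nefm and Snap25), with sums of 8178 and 8691 CPM in NT against 7110 to 7411 CPM in KO libraries, without overlap. The part of these shifts in the lower values of Cyp46a1 and both SREBP genes was not tested.

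Giving Smarcc2 back was compared first with vector. With WT at rest, 0 of the 31 genes passed (0.0143% of all genes did), 8 had an unadjusted p under 0.05, and DESeq2 called 0. The fold change lay above 0 for 25 of the 31, with a median of 0.19 against -0.01 over all genes. Hmgcs1 was at 342 and 307 CPM with WT (log2 fold change against vector 0.41, SE 0.145, adjusted p = 0.294, edgeR), between the vector and NT libraries. Soat1, at 35.9 and 40.1 CPM (log2 fold change 0.55, adjusted p = 0.246 by edgeR), and Srebf1, at 35.1 and 34.0 CPM (log2 fold change 0.56), also lay between both. Apoe was at 264 and 301 CPM, above every vector library and below both NT libraries. Abca1, which exports cholesterol, had the lowest fold change of the 31 and lay the other way, at 108 and 114 CPM with WT against 154, 141 and 142 CPM with vector and 167 and 147 CPM in NT (log2 fold change -0.39 ± 0.154 SE, adjusted p = 0.352 by edgeR), with the WT libraries below all others at rest in these groups. Medians of markers with WT against vector were 0.46 for astrocytes, 0.58 for dividing progenitors and -0.06 for neurons, with no marker called. Against NT at rest these medians were -0.52, -0.96 and -0.08. Astrocyte marker sums with WT (1290 and 1114 CPM) lay within the range of the vector libraries (965 to 1433 CPM). The part of these shifts in the values of the 31 genes was not tested.

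With WT after KCl, 0 of the 31 passed against vector (0.00955% of all genes did), 1 had an unadjusted p under 0.05, and DESeq2 called 0. The median was 0.13, and 24 of the 31 lay above 0. The 3 WT libraries were spread widely for Apoe (236, 306 and 101 CPM), Srebf1 (29.3, 39.5 and 18.2 CPM) and Soat1 (44.3, 35.9 and 25.9 CPM), with the third lowest for each. Astrocyte markers summed to 986, 1313 and 1060 CPM in these libraries. The change of the KCl response from vector to WT gave 0 of 31 calls by edgeR (0% of all genes), 2 with an unadjusted p under 0.05, and 0 by DESeq2.

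Against NT, WT cultures had 0 of 31 calls at rest (0.105% of all genes) and 0 after KCl (0.201%). At an unadjusted p under 0.05 there were 10 and 9, and DESeq2 called 0 and 2 (Srebf2 and Abca1). The shares of all genes given here are those of edgeR and no background for the DESeq2 counts. The medians were -0.18 at rest, where 24 of the 31 lay below 0, and -0.04 after KCl. At rest Srebf2 was at 181 and 181 CPM with WT and Cyp46a1 at 216 and 209 CPM, in both cases below the NT libraries (log2 fold changes -0.33 and -0.24, neither called). Abca1, the exporter of cholesterol to apolipoproteins, was at 156 and 219 CPM in depolarized NT and 93.7, 152 and 114 CPM in depolarized WT libraries (log2 fold change -0.65 ± 0.150 SE, adjusted p = 0.0824 by edgeR).

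With S586E at rest, 1 of the 31 genes, Srebf2, was higher than with vector, against 0.0191% of all genes in either direction and 0.0143% called higher. Srebf2 was at 258, 218 and 231 CPM with S586E and at 155, 159 and 179 CPM with vector (log2 fold change 0.52 ± 0.0770 SE, adjusted p = 0.0165 by edgeR). The S586E libraries did not overlap with the vector libraries and spanned both NT libraries (225 and 231 CPM). Of the 31 genes 25 lay above 0, 12 had an unadjusted p under 0.05, and the median was 0.21 against -0.01 over all genes. The largest of those that did not pass were in Fdft1, at 165, 109 and 125 CPM with S586E and 73.6, 73.9 and 105 CPM with vector (log2 fold change 0.66 ± 0.145 SE, adjusted p = 0.212 by edgeR), and Mvd, at 38.1, 28.0 and 36.2 CPM with S586E and 18.3, 21.2 and 27.4 CPM with vector (log2 fold change 0.62 ± 0.139 SE, adjusted p = 0.212 by edgeR). With the replicate number as a block, whose pairs correlated here, 2 genes were called, Srebf2 (0.52, adjusted p = 0.00639, edgeR) and Mvd. DESeq2 called 4 (Hmgcs1, Mvd, Fdft1 and Srebf2), against 0.295% of all genes by DESeq2. Srebf2 did not pass with effective-length offsets (adjusted p = 0.084), in a fit of only the 2 groups (0.296), or without vector replicate 1 (0.177), vector replicate 2 (0.16) or S586E replicate 1 (0.104), all by edgeR, and without vector replicate 3 there were 3 calls.

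Against NT, 3 of the 31 genes were lower with S586E at rest (2.78% of all genes in either direction, 1.74% lower), all in lysosomal export or storage. Npc1 was at 27.5, 28.8 and 30.1 CPM with S586E (log2 fold change -0.44 ± 0.102 SE, adjusted p = 0.0314 by edgeR), Npc2 at 23.3, 22.2 and 25.7 CPM (log2 fold change -0.63 ± 0.133 SE, adjusted p = 0.0222 by edgeR) and Soat1 at 31.2, 29.1 and 24.2 CPM (log2 fold change -1.03 ± 0.176 SE, adjusted p = 0.00752 by edgeR). In each case the 3 S586E libraries lay below both NT libraries given above. The synthesis genes had medians near 0 (0.06 in the mevalonate arm and -0.03 from squalene to cholesterol), and Apoe was at 180.4, 192 and 183 CPM (log2 fold change -1.46 ± 0.404 SE, adjusted p = 0.0595 by edgeR). Of the fatty acid synthesis genes 5 fell against NT, led by Scd1 (-1.07), and 5 of 11 tested oligodendrocyte lineage markers fell, whose part in the result was not tested. Without NT resting replicate 2 none of the 31 was called, without S586E replicate 1 or 2, 1 was, and length offsets left 1.

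S586E and WT at rest did not differ in a gene that passed: 0 of the 31 and 0% of all genes were called by edgeR, while 12 of the 31 had an unadjusted p under 0.05 and DESeq2 called 1, Srebf2. The edgeR share is no background for the DESeq2 count. Srebf2 was at 258, 218 and 231 CPM with S586E and 181 and 181 CPM with WT, without overlap (log2 fold change 0.38 ± 0.0865 SE, adjusted p = 0.118 by edgeR). Tm7sf2, a sterol reductase, was at 23.2, 24.5 and 21.4 CPM with S586E and 30.9 and 28.6 CPM with WT (log2 fold change -0.37 ± 0.107 SE, adjusted p = 0.171 by edgeR). Soat1 was at 31.2, 29.1 and 24.2 CPM with S586E and 35.9 and 40.1 CPM with WT (log2 fold change -0.43 ± 0.178 SE, adjusted p = 0.313 by edgeR). Smarcc2 itself was at 1164 to 1276 CPM with S586E and at 756 and 816 CPM with WT.

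With S586A after KCl, 0 of the 31 passed against vector (0.00955% of all genes), 4 had an unadjusted p under 0.05, and DESeq2 called 0. Against NT, 0 of 31 passed (0.43% of all genes), 8 had an unadjusted p under 0.05, and DESeq2 called 3 (Srebf2, Abca1 and Npc1). The 0.43% is the edgeR share and no background for the DESeq2 count. Npc1 was at 31.1 and 23.3 CPM with S586A and 38.6 and 37.7 CPM in depolarized NT (log2 fold change -0.49 ± 0.113 SE, adjusted p = 0.0668 by edgeR). Against WT after KCl, 0 of 31 and 0% of all genes were called, 2 had an unadjusted p under 0.05, and DESeq2 called 0. Srebf2 was at 172 and 183 CPM with S586A and 176, 182 and 187 CPM with WT, with overlap (log2 fold change -0.04).

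The second question was how depolarization changed the genes. At DIV7, 13 of the 31 genes were called after 30 min of KCl, 10 higher and 3 lower. Of all 19822 genes tested, 17% were called, 7.34% higher and 9.67% lower. In simulated data with 2-fold changes, 16% of the calls of this fit were false, and smaller changes were not simulated. Of the 10 higher genes 8 encode enzymes of synthesis, and the other two were the carrier gene Stard4 and Insig1. The lower genes were Tm7sf2, Abcg1 and Srebf1. The median log2 fold change of the 31 genes was 0.07 (-0.0014 over all genes).

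**Figure D4:**
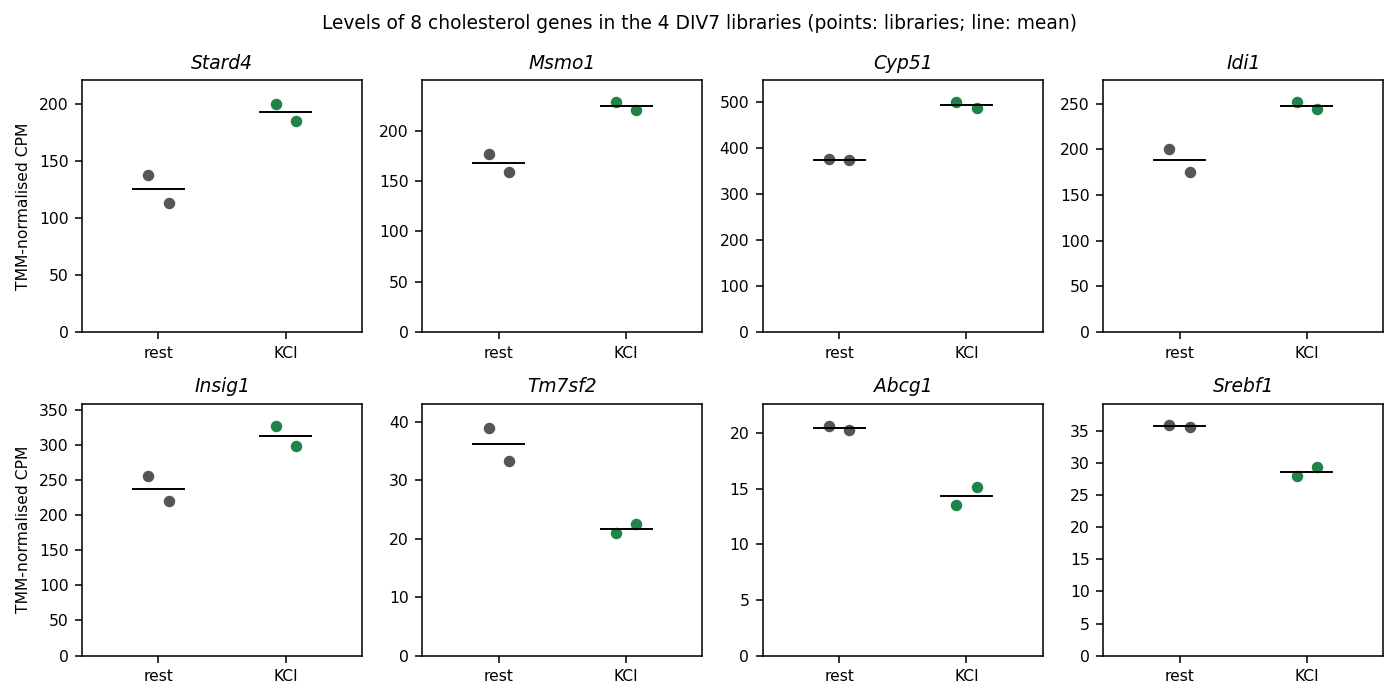
Each panel plots the TMM-normalised CPM of 1 gene in the 2 resting and 2 KCl libraries at DIV7, with points for libraries and a line for the mean. The KCl points lie above the resting points for Stard4, Msmo1, Cyp51, Idi1 and Insig1 and below them for Tm7sf2, Abcg1 and Srebf1.

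In the mevalonate arm Idi1 rose most at DIV7, from 201 and 175 CPM in the 2 resting libraries to 251 and 244 CPM after KCl (log2 fold change 0.40 ± 0.0670 SE, adjusted p = 0.00946 by edgeR). Pmvk rose from 98.4 and 96.3 to 113 and 109.9 CPM (log2 fold change 0.20 ± 0.0475 SE, adjusted p = 0.0323 by edgeR) and Hmgcs1 from 2061 and 2024 to 2282 and 2266 CPM (log2 fold change 0.15 ± 0.0295 SE, adjusted p = 0.0144 by edgeR). These rises were small, between 11.3% and 31.6%, but the libraries of the 2 states did not overlap. Mvk (-0.13), Mvd (0.02), Fdps (0.07) and Acat2 (0.02) were not called.

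From squalene onwards, 5 of 11 genes rose and 1 fell. Msmo1, a methyl oxidase of the demethylation steps, rose from 177 and 159 to 228 and 220.4 CPM (log2 fold change 0.42 ± 0.0588 SE, adjusted p = 0.00502 by edgeR), and Cyp51 from 377 and 373 to 501 and 488 CPM (log2 fold change 0.40 ± 0.0377 SE, adjusted p = 0.00124 by edgeR). Hsd17b7 rose from 96.5 and 87.7 to 124 and 111 CPM (log2 fold change 0.35 ± 0.0707 SE, adjusted p = 0.0175 by edgeR). The late desaturase gene Sc5d rose from 198 and 185 to 230.1 and 231 CPM (log2 fold change 0.27 ± 0.0481 SE, adjusted p = 0.0117 by edgeR), and the squalene epoxidase gene Sqle from 419 and 416 to 455 and 483 CPM (log2 fold change 0.17 ± 0.0431 SE, adjusted p = 0.0400 by edgeR). The KCl libraries of these 5 genes lay above the resting ones. Tm7sf2 fell from 39.0 and 33.3 to 20.98 and 22.5 CPM (log2 fold change -0.74 ± 0.0956 SE, adjusted p = 0.00383 by edgeR). Its transcripts annotated with retained introns held 38.0% and 34.5% of its counts at rest and 24.2% and 21.7% after KCl, and it fell also over protein-coding transcripts alone (log2 fold change -0.48, adjusted p = 0.0233, edgeR, an alternative chosen after the data were seen). Fdft1, Lss, Nsdhl, Ebp and Dhcr7 were not called, with log2 fold changes from -0.11 to 0.16.

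Among the control genes, Insig1 rose from 256 and 220.3 to 327 and 298 CPM (log2 fold change 0.39 ± 0.0774 SE, adjusted p = 0.0160 by edgeR), and Srebf1 fell from 36.0 and 35.7 to 28.1 and 29.3 CPM (log2 fold change -0.32 ± 0.0667 SE, adjusted p = 0.0195 by edgeR). Srebf2, at 391 and 394 CPM at rest and 414 and 409 CPM after KCl, was not called (log2 fold change 0.07 ± 0.0368 SE, adjusted p = 0.263 by edgeR). In transport, Stard4 rose from 137 and 113 to 200.2 and 186 CPM, the largest rise of the 31 genes (log2 fold change 0.62 ± 0.0898 SE, adjusted p = 0.00553 by edgeR), and the exporter gene Abcg1 fell from 20.6 and 20.3 to 13.5 and 15.2 CPM (log2 fold change -0.51 ± 0.0925 SE, adjusted p = 0.0120 by edgeR). Apoe, at 181 and 207 CPM at rest and 157 and 205 CPM after KCl, overlapped between the states (-0.10, not called). The states did not overlap for the 13 called genes, but with 2 libraries each this does not set them apart. Lss, which was not called, did not overlap either (228 and 202 CPM at rest, 252 and 230 CPM after KCl). The share of all genes without overlap was not counted. Without DIV7 resting replicate 2, 5 of the 31 genes were called (Idi1, Cyp51, Tm7sf2, Msmo1 and Stard4). With 4 libraries the fit had 2 residual degrees of freedom.

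Other lists were read at DIV7 beside the 17% of all genes called. Of 32 tested genes of sterol transport, receptors and LXR control, 2 rose and 4 fell. Among those with a mean of at least 1 CPM, Mylip, a ligase that targets lipoprotein receptors, changed most (1.24, SE 0.108, adjusted p = 8.97e-04, edgeR), then Osbpl5 (-0.34) and Gramd1b (0.33). Of the 16 fatty acid synthesis genes 1 rose, Acsl3 (0.19), and among the other sterol synthesis and control genes Pgrmc1 rose (0.18). Of the astrocyte markers Sox9 rose and Gfap and Slc1a3 fell, with list sums of 604 and 675 CPM at rest and 568 and 585 CPM after KCl, and their part in the changes was not tested.

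At DIV18 none of the 31 genes was called for KCl against rest in NT cultures or in KO cultures with vector or WT. S586E had only resting and S586A only depolarized libraries, so they allow no such comparison. In NT cultures 0 of 31 passed (0.00955% of all genes), 0 had an unadjusted p under 0.05, and DESeq2 called 0. In KO cultures with vector 0 passed (0.0716% of all genes), 7 had an unadjusted p under 0.05, and DESeq2 called 0. In KO cultures with WT 0 passed (0.043% of all genes), 0 had an unadjusted p under 0.05, and DESeq2 called 0. Of the 10 early response genes, 1 was called in NT (Fosb), 8 with vector and 6 with WT, against 10 at DIV7. Their sums ran from 463 to 1512 CPM in the depolarized WT libraries. The lack of calls at DIV18 therefore does not show a lack of response. Stard4 was at 47.5 and 64.3 CPM at rest and 45.1 and 41.8 CPM after KCl in NT libraries (log2 fold change -0.36, SE 0.187). In KO libraries with vector it was at 27.0, 31.8 and 42.0 CPM at rest and 41.0, 43.4 and 48.0 CPM after KCl (log2 fold change 0.40, SE 0.156). The medians over the 31 genes were -0.10 in NT, 0.07 in KO with vector and 0.03 in KO with WT.

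**Figure D5:**
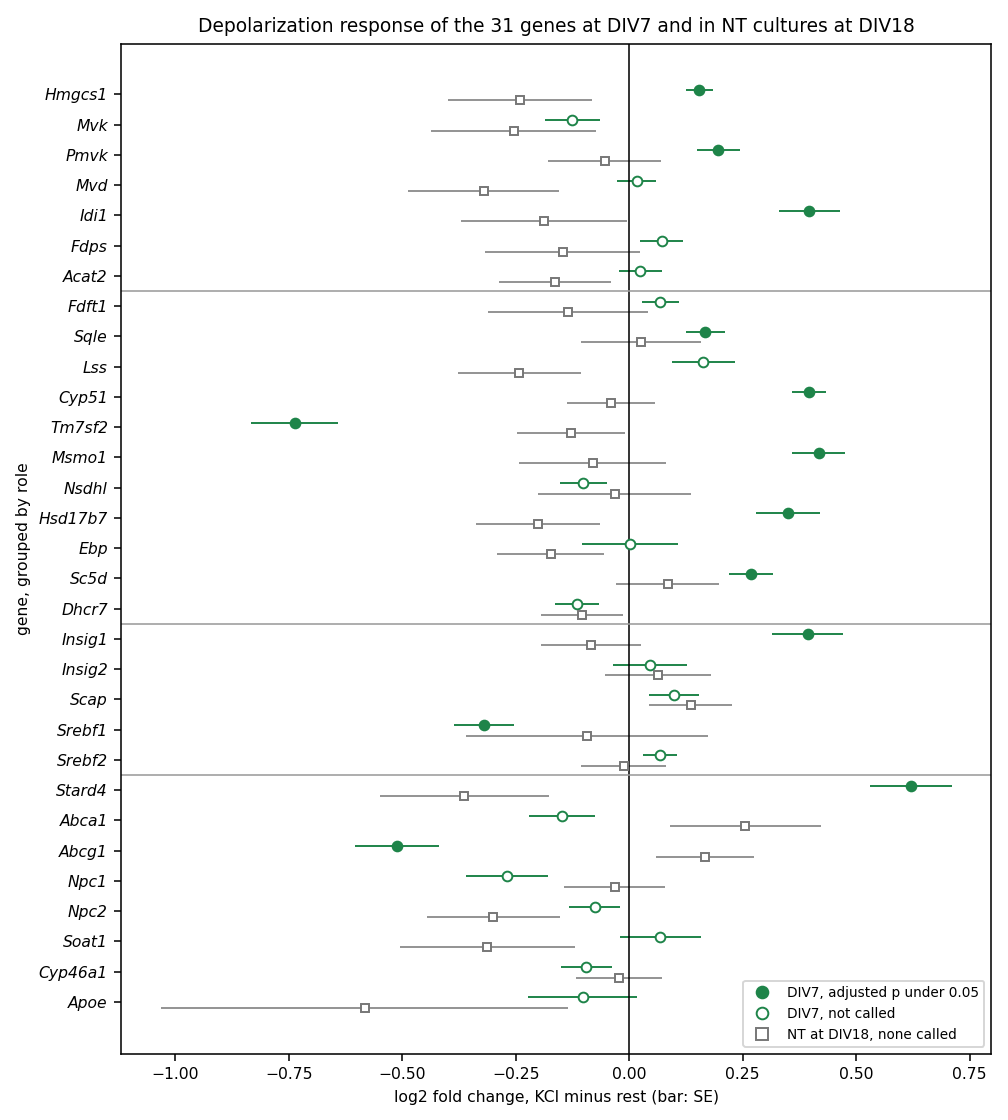
The horizontal axis gives the log2 fold change of KCl minus rest with its SE as a bar, for the 31 genes grouped by role, at DIV7 (circles, filled where the adjusted p was under 0.05) and in NT cultures at DIV18 (squares). The 13 filled circles run from -0.74 for Tm7sf2 to 0.62 for Stard4, and no square was called.

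The 10 genes Mvk, Fdps, Acat2, Fdft1, Lss, Nsdhl, Ebp, Insig2, Scap and Abca1 passed in no comparison. At DIV18 their mean levels ran from 7.64 TPM for Lss to 29.8 TPM for Fdft1. Transcripts annotated with retained introns held 44.1% to 65.0% of the counts of Lss at DIV18.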

How the data were processed

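RNA was sequenced from 24 libraries (20 at DIV18, 4 at DIV7). Per the submitters' processing notes, FastQC, cutadapt and kallisto were used; their versions, the genome build and the annotation were not given in the sources used here. The authors deposited, per the file headers, estimated counts, TPM and effective lengths per transcript, with no replicates pooled. No column of per-sample values of other samples was found (0).

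Of 142552 transcripts, 141429 (99.2%) matched GENCODE M21 (GRCm38) identifiers and were summed to 55177 genes; the 1123 unmatched held at most 0.467% of a library's counts. Sums of estimated counts were rounded and tested with edgeR 4.0.16 (R 4.3.3, limma 3.58.1): low-count filter, TMM scaling, quasi-likelihood F test, Benjamini-Hochberg adjustment over all genes, called at an adjusted p under 0.05. The 20 DIV18 libraries were fitted together (8 groups, 20940 genes, 12 residual degrees of freedom, common biological coefficient of variation 14.64%). The DIV7 libraries were fitted alone (19822 genes, 2 residual degrees of freedom, 6.442%). All 31 genes passed the filter in both. Tested on simulated data, the procedure recovered 50.5% of genes changed 2-fold in the resting comparison of vector with NT (20940 genes) and 63% for KCl at DIV7 (19822 genes), where 16% of calls were false. Estimated counts divide reads between similar transcripts, so values of overlapping or near-identical genes are uncertain, and depth limits precision for genes of low count.

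The members and lists were chosen with earlier results of these data known. Members called anywhere, with Srebf1, Srebf2, Insig1, Cyp46a1 and Apoe, were named with values; of other lists, at most the 3 called genes of largest absolute log2 fold change with a mean of at least 1 CPM per comparison. Marker genes named at 0, and defining markers beside them, were chosen after their values were seen. A result of the other sterol synthesis and control genes at DIV7 is not reported here.

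Replicate numbers come from the labels, which do not say that a number is 1 embryo. Deviations from group means of same-numbered libraries correlated at 0.33, 0.316 and 0.51 (KCl: WT and vector), 0.4, 0.269 and 0.417 (rest: S586E and vector) and 0.122, 0.229 and 0.382 (vector: KCl and rest). Numbers were therefore taken to pair these groups. The main fit took no account of this pairing, so its p-values and counts are unpaired. Pairing entered only through the replicate block. With the block, S586E against vector called 2 of the cholesterol genes, against 1 in the main fit. WT against vector after KCl and KCl against rest with vector each called 0 of them, as in the main fit. Alternatives were other size factors, DESeq2 1.42.0, no filter, effective-length offsets, a replicate block, fits of the compared groups alone, omission of single libraries and, chosen after seeing the data, protein-coding transcripts only and a crossed block.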

Additional observations from a re-analysis of the deposited data

Results flagged for a closer look

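For 7 genes the KCl response pointed upward at DIV7 and downward in NT cultures at DIV18, with every library after KCl on one side of every resting library at each age. The difference between the responses was not tested, and age and RNA selection cannot be told apart between them. The difference of the log2 fold changes, DIV7 minus NT at DIV18, was 0.98 for Stard4 (0.62 against -0.36), 0.58 for Idi1 (0.40 against -0.19) and 0.55 for Hsd17b7 (0.35 against -0.20). It was 0.41 for Lss, 0.40 for Hmgcs1, 0.38 for Soat1 and 0.25 for Pmvk. Lss and Soat1 were not called at DIV7, and none of the 7 was called in NT cultures at DIV18. In those NT cultures 0 of the 31 genes had an unadjusted p under 0.05 by edgeR. Each of the groups held only 2 libraries. The share of all genes with such opposite separation was not counted, so the number 7 cannot be set against a background.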

How the results depend on the processing

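No fold change of a gene named with a call reversed under an alternative. Of 391 alternative values of these genes, 292 kept direction and call and 91 kept direction but were no longer called. The other 8, untested values, moved by more than the spread between replicates. All 226 medians of the 31 genes moved by no more than the spread of the median between replicates, 0.133 at DIV18 and 0.14 at DIV7 (log2). Some medians were smaller than this spread, such as 0.07 for KCl at DIV7, so a change of sign would not have counted as a move. Counts of the 31 genes called changed as follows, and the cause was not tested. Where the main count is repeated, it stands in parentheses or comes second in a pair such as 16 against 12. With no low-count filter they were 8 for KO with vector against NT after KCl (3), 5 for WT against vector at rest (0), 1 after KCl (0), 8 for S586E against vector (1), 1 for S586A against vector (0), 5 and 3 for WT against NT at rest and after KCl (0 and 0), 6 for S586E against NT (3), 4 for S586A against NT (0), 6 for S586E against WT (0), 1 each for KCl in NT, vector and WT cultures (0), and 3 for the difference of the KCl response between vector and NT (0). With DESeq2 they were 4 for S586E against vector, 2 for WT against NT after KCl, 5 and 3 for S586E and S586A against NT, and 1 for S586E against WT. With effective-length offsets they were 0 for S586E against vector and 1 for S586E against NT. In fits of only the groups compared they were 2 and 7 for KO with vector against NT at rest and after KCl, 0 for S586E against vector and 1 for S586E against WT. With the replicate block they were 2 for S586E against vector and 2 for S586A against NT, 16 against 12 for KO with vector against NT at rest and 4 against 3 after KCl; apart from the first, the groups compared share 2 numbers, which does not show that they are paired. Same-numbered NT libraries at rest and after KCl correlated at -0.274, and a block with the numbers crossed called 0 of the 31. Leaving out 1 library each gave 0 to 11 for KO with vector against NT at rest, 0 to 2 after KCl, 0 to 3 for S586E against vector, 0 to 1 for WT and S586A against NT after KCl, 0 to 3 for S586E against NT, and 5 to 11 for KCl at DIV7. Over all genes, KO with vector against NT at rest gave 1236 calls, 2016 with no filter, 682 with length offsets and 225 with only these groups; after KCl it gave 560, 1438, 278 and 708. KCl at DIV7 gave 3371 calls, 5854 with the block, 2217 with DESeq2 and 1851 over protein-coding transcripts. With no filter, WT against vector gave 604 calls over all genes (1.47%) against 3 at rest, and 127 (0.309%) against 2 after KCl. S586E against vector gave 315 (0.766%) against 4, and S586A against vector 531 (1.29%) against 2. Counts of the 31 given without a count over all genes in the same setting cannot be set against a background.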
